A study of Homo sapiens with 12 samples.

Results

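Messenger RNA of the class IIa histone deacetylases HDAC4, HDAC5, HDAC7 and HDAC9 and of the TET enzymes TET1, TET2 and TET3 was examined in HA22T and PLC5, 2 human hepatocellular carcinoma cell lines. Each line had been transfected with a non-targeting siRNA (siControl) or with a pool of siRNAs against GALNT1 (siGALNT1), at 10 nM for 48 h. GALNT1 is the Golgi enzyme that starts mucin-type O-glycosylation. The 4 groups, HA22T siControl, HA22T siGALNT1, PLC5 siControl and PLC5 siGALNT1, held 3 one-color Agilent arrays each, so the control arrays also came from transfected cells. The members were found by matching the RefSeq transcript that the array files give for each probe to a gene symbol. Of 50599 probes on the array, 13 matched 6 of the 7 genes: 2 for HDAC4, 1 for HDAC5, 1 for HDAC7, 2 for HDAC9, 3 for TET1 and 4 for TET2. No probe matched a TET3 transcript in the table used here, so TET3 has no value.

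Class IIa histone deacetylases have little deacetylase activity of their own. They bind MEF2 transcription factors and bring HDAC3 to chromatin through the corepressor NCOR1. Kinases of the SIK, CaMK and PRKD families phosphorylate them, after which YWHA proteins and SFN hold them in the cytoplasm. In liver they are known for the control of gluconeogenic genes such as G6PC1 and PCK1 during fasting. TET enzymes oxidize methylcytosine in CG dinucleotides, using alpha-ketoglutarate that IDH1 and IDH2 make, and the glycosylase TDG and base excision repair can then restore plain cytosine.

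Promoter windows of the members' own genes were searched for CG dinucleotides, the context known for TET, and MEF2-type elements, known for class IIa HDACs. Whether these enzymes act at the windows was not tested. RefSeq windows of GRCh38.p14, 250 bases before to 50 after a transcript start, were given for 6 members (18 windows, none for HDAC5). HDAC7 and TET1 are shown because, of the probes from which genes were read, theirs had an adjusted p below 0.05 between the lines with siControl, with CG dinucleotides in capitals, and HDAC9 because it held a match to the MEF2 consensus, in capitals there. The consensus searched was CTA, then 4 bases of A or T, then TAG, which reads the same on both strands. All are written 5′ to 3′ on the strand of the gene, HDAC7 on the minus strand of chr12:47819854-47820153, TET1 on the plus strand of chr10:68560087-68560386 and HDAC9 on the plus strand of chr7:18086575-18086874.
HDAC7: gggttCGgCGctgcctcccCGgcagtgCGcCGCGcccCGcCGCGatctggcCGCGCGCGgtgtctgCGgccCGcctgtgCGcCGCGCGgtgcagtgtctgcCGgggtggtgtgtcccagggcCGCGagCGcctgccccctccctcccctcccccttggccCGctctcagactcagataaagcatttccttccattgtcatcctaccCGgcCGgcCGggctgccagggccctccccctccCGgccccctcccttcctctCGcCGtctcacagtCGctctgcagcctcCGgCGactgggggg
TET1: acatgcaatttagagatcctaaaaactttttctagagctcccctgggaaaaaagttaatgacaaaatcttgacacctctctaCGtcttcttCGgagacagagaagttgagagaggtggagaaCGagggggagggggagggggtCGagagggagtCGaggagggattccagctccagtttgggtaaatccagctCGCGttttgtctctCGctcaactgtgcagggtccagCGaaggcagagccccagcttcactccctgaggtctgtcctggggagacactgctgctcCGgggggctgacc
HDAC9: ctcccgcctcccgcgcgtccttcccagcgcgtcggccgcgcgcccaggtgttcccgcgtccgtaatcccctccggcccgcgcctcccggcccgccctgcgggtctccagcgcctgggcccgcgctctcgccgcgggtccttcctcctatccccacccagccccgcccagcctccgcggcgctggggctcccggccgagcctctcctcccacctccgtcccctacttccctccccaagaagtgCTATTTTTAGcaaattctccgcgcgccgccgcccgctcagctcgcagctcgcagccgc
The HDAC7 window held 33 CG dinucleotides, this TET1 window 10 and this HDAC9 window 41, against a median of 14 over all 35116 windows. The other HDAC9 windows, of which some overlap, held 0 to 5 and those of HDAC4 3 to 40. The other TET1 windows, which overlap, held 6 and 11, the TET2 windows 13 and 35 and the TET3 windows 45 and 33. The MEF2 consensus was found in 1 of the 18 member windows and in 0.572% of all windows. These are descriptions of the reference sequence, and methylation was not measured.

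Values are log2 intensities from which the array's own 75th percentile was subtracted, so they compare 1 probe between arrays and not different probes. Between 36679 and 48873 of the 58717 spots that are not controls were well above background on an array, and 0 were saturated. Spots flagged as non-uniform were left out, 489 to 3633 per array. Slide 1 held all arrays of HA22T with both replicate 1 arrays of PLC5, and slide 2 the other 4, so line and slide overlap in part. With siControl, 7 of 8 liver markers were lower in HA22T than in PLC5 (adjusted p below 0.05 in limma). In HA22T, ALB was well above background on 3 of 3 siControl and 1 of 3 siGALNT1 arrays. A blood cell marker, PTPRC, gave bright values in all groups, from 4.78 to 5.62 as group means, and whether that probe measures PTPRC in these lines was not tested. The targeted gene was lower on every siGALNT1 array. The GALNT1 probe that was read (A_33_P3210218) gave a log2 difference of -5.10 in HA22T (limma adjusted p = 0.0708) and -3.72 in PLC5 (limma adjusted p = 1.00), with a standard error of 0.61 in each. The other (A_23_P306105) gave -4.75 and -3.03, and limma called only the HA22T value (adjusted p = 0.0305). On HA22T siGALNT1 arrays these probes were well above background on 2 of 3 and 1 of 3, so the sizes there rest in part on background signal. Labels give replicate numbers without saying that cultures were separate, so p-values measure the spread between these arrays.

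The first question was whether GALNT1 knockdown changed the members. HDAC5, a repressor of MEF2 targets, was the only member whose siGALNT1 arrays all lay above the siControl arrays in both lines, and it did not pass correction for all probes. Groups that did not overlap, in either direction, were seen for 8.83% of all probes with 6 values in HA22T and 4.11% in PLC5. The share over both lines at once was not computed. After adjustment in limma, 0 of 12 counted member probes in HA22T and 0 of 9 in PLC5 had a p below 0.05. The share of all counted probes with such a p was 0.00275% in HA22T and 0% in PLC5. In PLC5 the same fit did not call GALNT1 itself, at a log2 difference of -3.72. The absence of calls there does not show that the members were unchanged. A probe was counted in a line when at least 3 of its 6 arrays measured it well above background.

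The HDAC5 probe (A_24_P125283) was well above background on all 12 arrays. In HA22T its log2 values were -3.68, -2.84 and -2.92 with siControl and -2.72, -2.26 and -2.73 with siGALNT1. The groups did not overlap, and replicate 1 of siControl was the lowest. In RNA from whole cultures, fewer cells with a transcript and less of it per cell cannot be told apart. The log2 difference was 0.58 (standard error 0.31, 95% interval -0.10 to 1.25, adjusted p = 1.00 from limma, two-sided exact permutation p = 0.1, the smallest that 3 arrays against 3 can give). In PLC5 the HDAC5 values were -3.47, -3.45 and -3.90 with siControl and -2.82, -3.10 and -2.39 with siGALNT1. Every siGALNT1 array lay above every siControl array there too. The log2 difference was 0.84, or 1.79-fold (standard error 0.31, 95% interval 0.16 to 1.51, unadjusted p = 0.0193, adjusted p = 1.00 from limma, exact permutation p = 0.1). In limma this was the only member probe that met a fold of 1.5 with an unadjusted p below 0.05 (1 of 9 counted, against 1.29% of all counted PLC5 probes), and 0 of 12 did so in HA22T, against 2.87%. By an unpaired Student's t-test 2 member probes met these limits in PLC5, HDAC5 and a dim TET1 probe (A_23_P322756), and 0 after adjustment. Over all counted PLC5 probes that test gave 325, and 0 after adjustment. In HA22T it gave 0 member probes, beside 753 over all counted probes. The limma fit tested 38070 counted probes in PLC5 and 36327 in HA22T. The study's methods name a Student's t-test among several tests, without saying which served the arrays. The study also lists RT-PCR primers for HDAC5 and TET1, under its check of selected array results. The shares of these genes beside all probes are therefore not independent of these data. Leaving out single arrays gave HDAC5 differences of 0.31 to 0.73 in HA22T, where siControl replicate 1 set the low end, and 0.65 to 1.00 in PLC5. By group means HDAC5 was lowest in PLC5 siControl (-3.61), then HA22T siControl (-3.15), PLC5 siGALNT1 (-2.77) and HA22T siGALNT1 (-2.57), and each neighbor in this order overlapped the next over its arrays. Between the lines HDAC5 differed by 0.46 with siControl and 0.20 with siGALNT1 (standard error 0.31 each, adjusted p = 0.335 and 0.685 from limma).

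**Figure D1:**
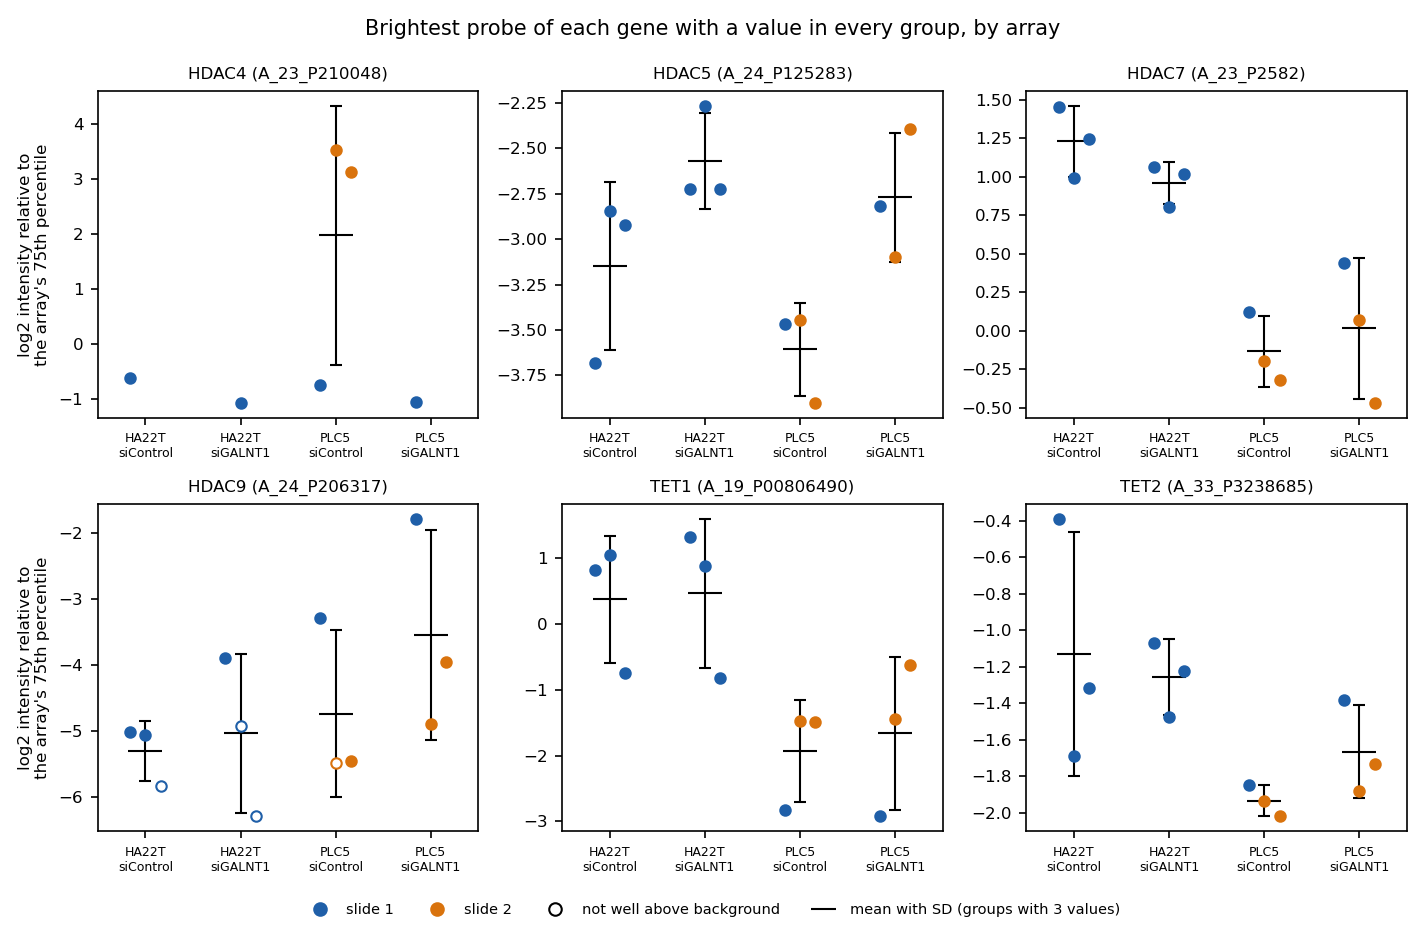
Log2 intensity relative to the array's 75th percentile (y axis, a separate scale in each panel) on every array of the 4 groups (x axis) for the probe from which each gene was read. Points are arrays, colored by slide and open where not well above background, and bars give the mean with SD for groups with 3 values. The HDAC5 groups of each line do not overlap although the adjusted p was 1.00, HDAC7 was higher in HA22T, and HDAC4 has 1 value in each of 3 groups.

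Of the other class IIa genes, HDAC7, which is known from T cells and blood vessels, had small differences with siGALNT1. The log2 difference was -0.27 in HA22T (95% interval -0.88 to 0.34) and 0.15 in PLC5 (95% interval -0.46 to 0.76), and the groups overlapped in both lines. HDAC9, which also gives rise to a MEF2-binding form without the catalytic domain, was dim. Its read probe (A_24_P206317) gave -3.28, -5.50 and -5.46 in PLC5 with siControl and -1.78, -4.89 and -3.96 with siGALNT1. Each siGALNT1 array was higher than the siControl array of the same number, yet the groups overlapped, and the replicate 1 arrays, on slide 1, were the highest in each group. The log2 difference was 1.20 in PLC5 (standard error 0.86, adjusted p = 1.00 from limma) and 0.27 in HA22T (standard error 0.86), and it was 0.32 in PLC5 without siGALNT1 replicate 1 and 1.93 without siControl replicate 1. The other HDAC9 probe (A_23_P404162), well above background on 1 PLC5 siControl array and on 0 of 3 PLC5 siGALNT1 arrays, was too dim to be counted in PLC5 and gave -0.40 in HA22T (standard error 1.08).

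HDAC4, a corepressor studied in muscle, cartilage and fasting liver, could be read only in part. Its brighter probe (A_23_P210048) was flagged as non-uniform on 6 of 12 arrays. The values left were -0.62 in HA22T siControl replicate 1, -1.07 in HA22T siGALNT1 replicate 2, -0.74, 3.53 and 3.12 in PLC5 siControl and -1.05 in PLC5 siGALNT1 replicate 1. The 2 high values were on slide 2 and the 4 low values on slide 1. With flagged spots kept, the 4 slide 2 arrays ran from 1.79 to 3.53 and the 8 slide 1 arrays from -1.07 to 1.39, so the level of this probe moved with the slide, whose part was not tested, and no difference between groups is read from it. The other HDAC4 probe (A_23_P79572), annotated to a noncoding transcript of the gene, was well above background on all 12 arrays. It gave a log2 difference of 0.17 in HA22T (standard error 0.40) and -0.54 in PLC5 (standard error 0.40), and its groups overlapped in both lines.

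The TET genes showed no called change with siGALNT1. TET1, an oxidase with a CXXC domain that is known from embryonic stem cells, had log2 differences on its 3 probes between 0.09 and 0.29 in HA22T and between 0.26 and 0.87 in PLC5, all above 0. The highest belonged to a dim probe (A_23_P322756). In PLC5 this probe gave -5.69, -6.15 and -5.62 with siControl and -5.27, -4.54 and -5.02 with siGALNT1. The groups did not overlap, but 1 of 3 siControl arrays and 2 of 3 siGALNT1 arrays measured it well above background, and the difference of 0.87 had a standard error of 0.41 (adjusted p = 1.00 from limma, exact permutation p = 0.1). TET2, the TET gene most often mutated in blood cancers, had differences between -0.39 and -0.12 on its 4 probes in HA22T. In PLC5 its read probe (A_33_P3238685), the only TET2 probe counted there, gave 0.27 (standard error 0.32, 95% interval -0.44 to 0.98). Over all members, 1 of 12 probes with a value on all 6 arrays had groups that did not overlap in HA22T, against 8.83% of all such probes. In PLC5 it was 2 of 8, against 4.11%. The 2 were the HDAC5 probe and the dim TET1 probe, both of genes with RT-PCR primers listed by the study. The median log2 difference of the counted member probes was -0.02 in HA22T and 0.27 in PLC5, beside -0.06 and 0.01 over all counted probes.

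**Figure D2:**
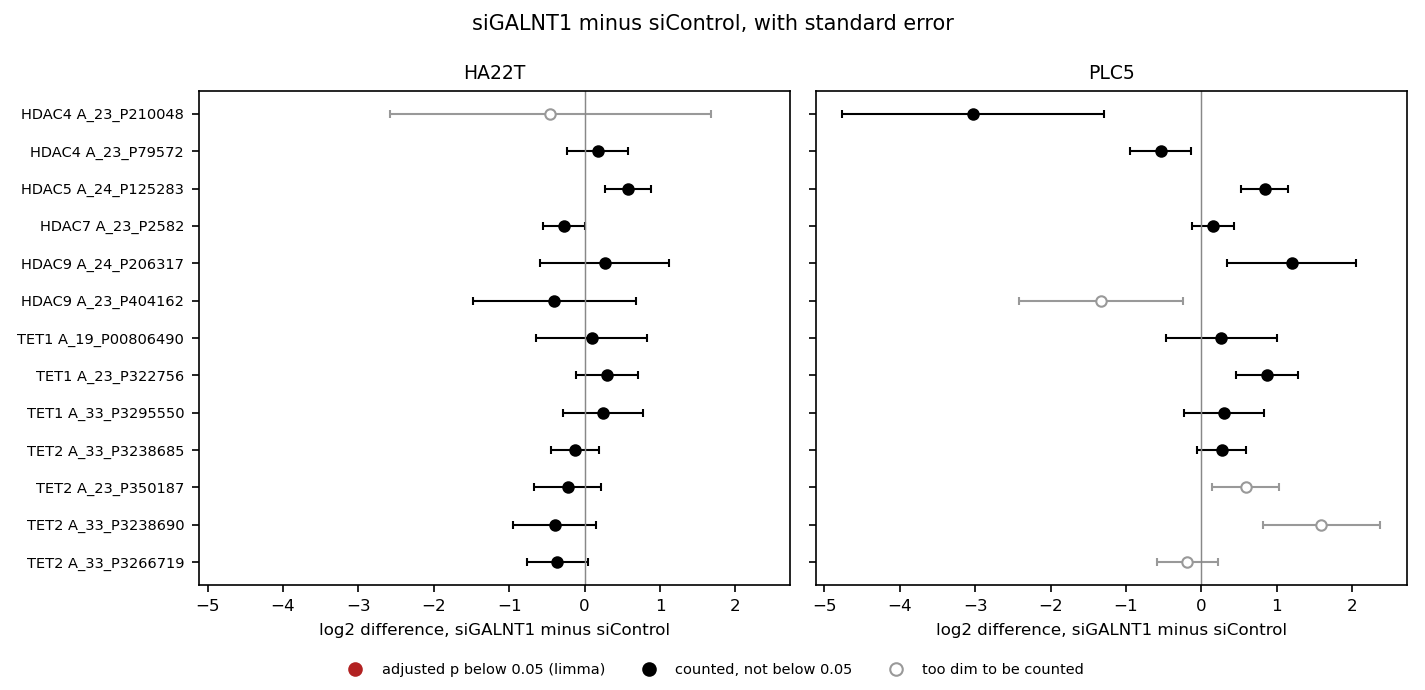
Log2 difference of siGALNT1 minus siControl (x axis) for the 13 member probes (y axis) in HA22T and PLC5, with limma's standard error as bars. No probe had an adjusted p below 0.05, HDAC5 stood at 0.58 and 0.84, and open gray points were too dim to be counted or, for HDAC4 in HA22T, had too few arrays.

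The difference of the siGALNT1 effect between the lines was tested as an interaction. Of 13 member probes, limma gave 0 with a p below 0.05 after adjustment (0% of all probes tested) and 0 before it (2.43% of all). Of these, HDAC4 (A_23_P210048) had 1 array in 3 groups and TET2 (A_33_P3238690) 1 array in PLC5 siControl, so little can be read from their tests. For HDAC5 the effect in HA22T minus that in PLC5 was -0.26 (standard error 0.43, 95% interval -1.21 to 0.69), for HDAC7 -0.42 (standard error 0.39) and for the read TET2 probe -0.39 (standard error 0.46). These intervals leave room for effects that differ by more than 1.5-fold between the lines.

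The second question was how the lines differed. HDAC7, TET1 and TET2 each had a probe that was higher in HA22T than in PLC5 with siControl, and HDAC7 was also higher with siGALNT1. With siControl, 3 of 13 member probes were higher (adjusted p below 0.05 in limma) and 0 were lower, against 11.0% and 11.5% of all probes tested. With siGALNT1, on arrays that share none with the first comparison, 1 of 13 was higher and 0 were lower, against 10.0% and 12.9%. Over both directions the background was 22.5% and 22.9%, so a call between the lines was common among all probes. The median log2 difference, HA22T minus PLC5, was 0.80 with siControl and 0.39 with siGALNT1 over the member probes and 0.03 and 0.11 over all probes. A probe entered these comparisons when counted in either line, and 12 of the 13 were counted in HA22T but 9 in PLC5. The TET2 probe called with siControl (A_23_P350187) entered only through HA22T, where it was higher. The member counts and medians are in part set by this filter, so no common direction of the members is read from them.

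HDAC7 (A_23_P2582) was well above background on all 12 arrays. With siControl its log2 values were 1.45, 0.99 and 1.25 in HA22T and 0.12, -0.20 and -0.32 in PLC5. With siGALNT1 they were 1.06, 0.80 and 1.02 in HA22T and 0.44, 0.07 and -0.47 in PLC5. All 6 HA22T arrays lay above all 6 PLC5 arrays, and the PLC5 replicate 1 arrays on slide 1 were the highest of PLC5. HA22T was higher by 1.37 with siControl, or 2.58-fold (standard error 0.28, adjusted p = 0.0042 from limma), and by 0.95 with siGALNT1, or 1.93-fold (standard error 0.28, adjusted p = 0.0303 from limma), with an exact permutation p of 0.1 in each. With the slide as a block the HDAC7 difference was 1.02 with siControl (adjusted p = 0.0340 from limma) and 0.60 with siGALNT1 (adjusted p = 0.173 from limma), so the second call was lost. Within slide 1, where PLC5 has 1 array per group, it was 1.11 and 0.52. The siGALNT1 call was also lost when its own groups were fitted alone (adjusted p = 0.107 from limma). The unpaired Student's t-test lost it too (adjusted p = 0.122). When single arrays were left out, the adjusted p from limma stayed below 0.05 in 12 of 12 fits with siControl and in 7 of 12 with siGALNT1. The siGALNT1 difference then ran from 0.70 to 1.16, and its adjusted p reached 0.0861 in limma. It was lost without any 1 of the HA22T siGALNT1 arrays or without PLC5 siGALNT1 replicate 2 or 3. By group means the order of HDAC7 was HA22T siControl (1.23), HA22T siGALNT1 (0.96), PLC5 siGALNT1 (0.01) and PLC5 siControl (-0.13), and neighbors of the same line overlapped.

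TET1 was higher in HA22T on its read probe (A_19_P00806490). With siControl the values were 0.82, 1.05 and -0.74 in HA22T and -2.82, -1.47 and -1.48 in PLC5. With siGALNT1 they were 1.33, 0.89 and -0.81 in HA22T and -2.92, -1.45 and -0.62 in PLC5. HA22T replicate 3 was low and PLC5 replicate 1 was lowest in both treatments, and with siGALNT1 the lines overlapped by 1 array. The difference was 2.30 with siControl (standard error 0.73, adjusted p = 0.0431 from limma) and 2.13 with siGALNT1 (standard error 0.73, adjusted p = 0.0577 from limma). The first stayed below 0.05 in 5 of 12 fits that left out 1 array, with values from 1.85 to 2.86 and an adjusted p of up to 0.137 in limma. The call was lost without any PLC5 siControl array, HA22T siControl replicate 1 or 2, HA22T siGALNT1 replicate 2 or PLC5 siGALNT1 replicate 2. By group means the order was HA22T siGALNT1 (0.47), HA22T siControl (0.37), PLC5 siGALNT1 (-1.66) and PLC5 siControl (-1.93), and each neighbor overlapped the next. With the slide as a block it was 3.38 (adjusted p = 0.0092 from limma) and 3.21 (adjusted p = 0.0123 from limma). The siControl call was lost with the replicate block (2.30, limma adjusted p = 0.0586) and without a filter on dim probes (limma adjusted p = 0.0534). It was also lost by the unpaired Student's t-test (adjusted p = 0.118). Within slide 1, where PLC5 siControl has 1 array, the difference was 3.20. The other TET1 probes showed smaller differences, 0.41 and 0.36 for A_33_P3295550 (standard error 0.53) and 0.74 and 0.16 for A_23_P322756 (standard error 0.41), so the probes of TET1 disagree in size. None of these 4 values passed (adjusted p from 0.239 to 0.811 in limma).

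**Figure D3:**
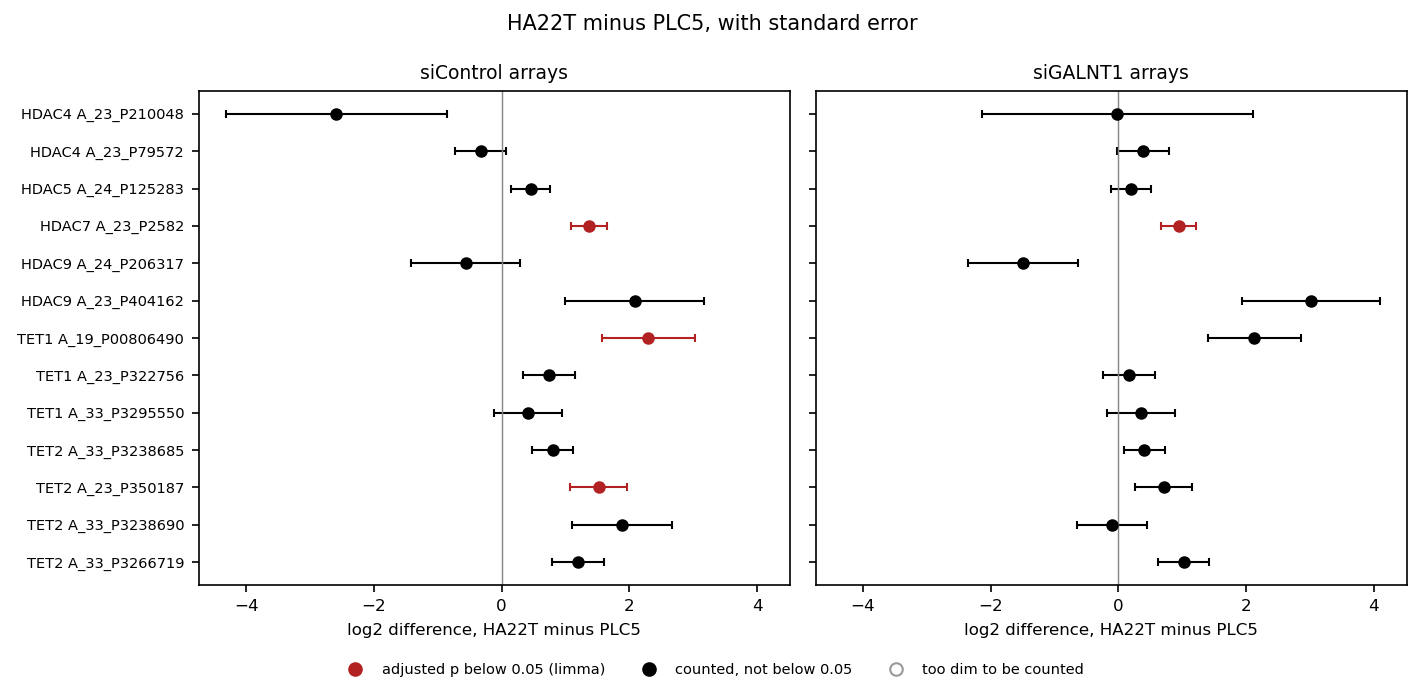
Log2 difference of HA22T minus PLC5 (x axis) for the 13 member probes (y axis) on siControl and on siGALNT1 arrays, with limma's standard error as bars and red for an adjusted p below 0.05. HDAC7 is red in both panels, the TET1 and TET2 probes in red reach 2.30 and 1.52 on siControl arrays, and the HDAC9 probes lie on opposite sides of 0.

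TET2 was higher in HA22T with siControl on 1 of its 4 probes by adjusted p. Its read probe (A_33_P3238685) gave -0.39, -1.69 and -1.32 in HA22T and -1.85, -1.93 and -2.02 in PLC5, without overlap. The difference was 0.80 (standard error 0.32, adjusted p = 0.103 from limma), and 0.41 with siGALNT1 (-1.07, -1.48 and -1.22 against -1.38, -1.88 and -1.73, standard error 0.32, adjusted p = 0.395 from limma). On this probe the order was HA22T siControl (-1.13), HA22T siGALNT1 (-1.26), PLC5 siGALNT1 (-1.66) and PLC5 siControl (-1.93), with overlap between neighbors. The probe that passed (A_23_P350187) was dim, at -4.89, -5.57 and -4.54 in HA22T and -6.84, -6.60 and -6.11 in PLC5. Of these PLC5 arrays 1 of 3 measured it well above background, and the difference was 1.52 (standard error 0.44, limma adjusted p = 0.0291). It was 0.71 with siGALNT1 (adjusted p = 0.277 from limma). It was below 0.05 in 8 of 12 fits that left out 1 array, with values from 1.29 to 1.80, and was lost without HA22T siControl replicate 1 or 3 or PLC5 siControl replicate 1 or 2. Background correction by normexp made it 0.67 (adjusted p = 0.1000 from limma). The call was also lost with quantile scaling (1.80, adjusted p = 0.0542 from limma) and by the unpaired Student's t-test (adjusted p = 0.0716). With the filter on all 6 arrays this probe was not counted. A probe of another TET2 transcript (A_33_P3266719) was also dim and gave 1.20 with siControl (adjusted p = 0.0534 from limma) and 1.02 with siGALNT1 (adjusted p = 0.0906 from limma). The last probe (A_33_P3238690) had 1 usable PLC5 siControl array, not well above background, so no fold is given. With flagged spots kept it read -6.64, -4.16 and -3.47 in PLC5 against -4.12, -4.81 and -5.34 in HA22T, and the lines overlapped. With siGALNT1 it differed by -0.10 (standard error 0.55).

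HDAC9 had no common direction between the lines. With siControl its read probe (A_24_P206317) gave -5.01, -5.07 and -5.84 in HA22T against -3.28, -5.50 and -5.46 in PLC5. With siGALNT1 it gave -3.89, -4.93 and -6.30 in HA22T against -1.78, -4.89 and -3.96 in PLC5. The PLC5 arrays on slide 1 stood above the rest. The difference was -0.56 with siControl and -1.49 with siGALNT1 (standard error 0.86 each, adjusted p = 0.698 and 0.237 from limma). With the slide as a block it became -2.17 (adjusted p = 0.0454 from limma) and -3.11 (adjusted p = 0.0083 from limma), while without PLC5 siControl replicate 1 the siControl difference was 0.17, so that array decides its sign. The other probe (A_23_P404162) pointed the other way. With siGALNT1 it read -3.56, -4.92 and -5.69 in HA22T, with 1 of 3 arrays well above background, and -6.60, -8.12 and -8.50 in PLC5, where 0 of 3 arrays measured it well above background. The lines did not overlap, but limma did not call the difference (adjusted p = 0.0675), and no fold is given because only 1 of these 6 arrays measured the probe well above background. With siControl it read -3.58, -4.44 and -4.94 in HA22T and -3.42, -7.47 and -8.33 in PLC5. The PLC5 array on slide 1 was the highest of all, the lines overlapped, and the difference was 2.08 (standard error 1.08, limma adjusted p = 0.208). The noncoding HDAC4 probe gave -0.33 with siControl and 0.39 with siGALNT1 (standard error 0.40 each, 95% intervals -1.21 to 0.55 and -0.49 to 1.27). Of member probes with all 6 values, 6 of 11 did not overlap between the lines with siControl, against 42.6% of all such probes. With siGALNT1 it was 2 of 12, against 39.7%, and all 8 were higher in HA22T. Among them, TET2 A_23_P350187 and A_33_P3266719 (siControl) and HDAC9 A_23_P404162 (siGALNT1) were counted in HA22T but not in PLC5. These probes entered only through the line where they were higher, so the common direction is in part set by the filter.

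**Figure D4:**
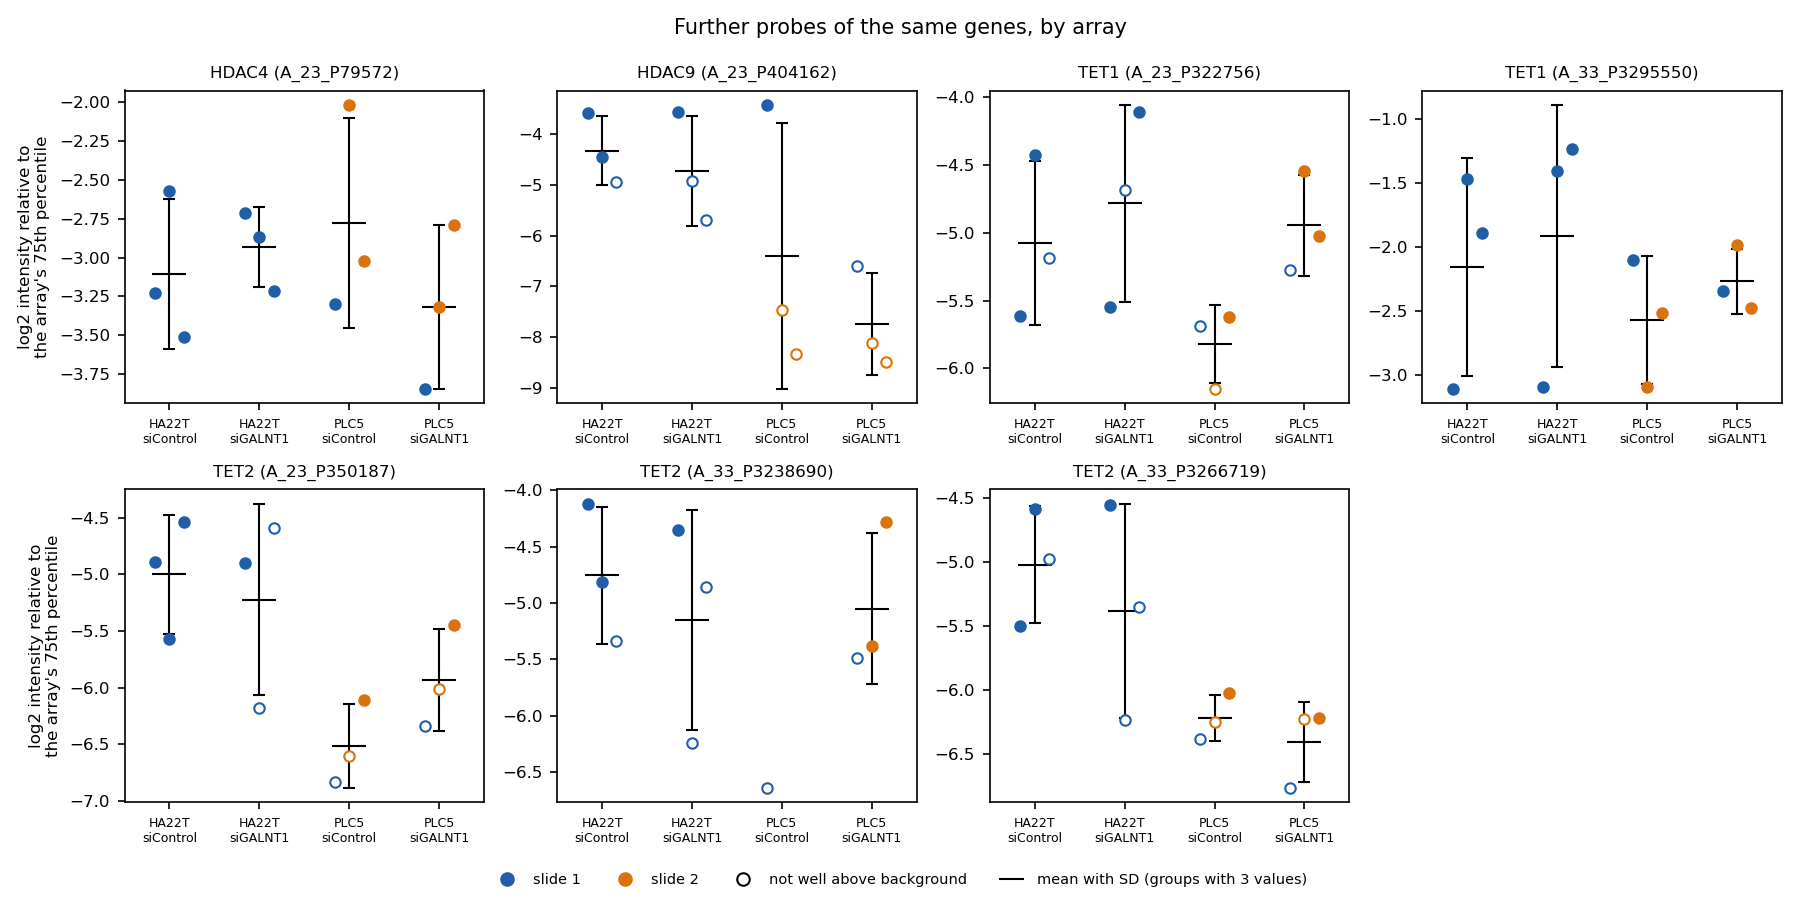
Log2 intensity relative to the array's 75th percentile (y axis, a separate scale in each panel) on every array of the 4 groups (x axis) for the 7 further probes of HDAC4, HDAC9, TET1 and TET2. Points are arrays, colored by slide and open where not well above background, and bars give the mean with SD. Most points of the dim HDAC9 and TET2 probes are open in PLC5.

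Genes that work with these enzymes were followed in 6 lists, each gene by its brightest probe. With siGALNT1, 0 genes of any list had an adjusted p below 0.05 in limma in either line. In HA22T 2 genes met a fold of 1.5 with an unadjusted p below 0.05 in limma. They were 1 of 20 counted partners and targets and 1 of 12 base excision genes, with 0 in the other lists. The share over all counted HA22T probes was 2.87%, and nothing particular to the lists is read from these 2. G6PC1, the last enzyme of glucose production and a class IIa target, had a log2 difference of 2.29 (standard error 0.84, limma adjusted p = 1.00), with 1 of 3 siControl and 2 of 3 siGALNT1 arrays well above background. XRCC1, a scaffold of base excision repair, had -0.67 (standard error 0.25, adjusted p = 1.00 from limma). No list gene (0) met that criterion in PLC5, against 1.29% of all counted PLC5 probes.

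Between the lines 5 of the 6 lists held calls in both directions in at least 1 treatment, and the DNA methylation list only higher ones. Their counts stand beside 11.0% higher and 11.5% lower calls over all probes with siControl, and 10.0% and 12.9% with siGALNT1, and nothing particular to a list is read from them. Of 21 counted regulators of class IIa HDACs, 6 were higher and 3 lower in HA22T with siControl, and 4 and 3 with siGALNT1. The salt-inducible kinase SIK1, which phosphorylates class IIa HDACs, was lower by a difference of -3.11 with siControl and -3.16 with siGALNT1, and its relative SIK2 by -1.70 and -1.86. SFN, a phosphoserine-binding protein of the YWHA family, differed by -3.21 and -2.71. The kinase CAMK2G was higher by 1.57 and 1.34 (adjusted p at most 0.0047 in limma for each of these values). Of 21 partners and targets, 6 were higher and 4 lower with siControl, and 5 and 5 with siGALNT1. HDAC3, the catalytic partner, was lower by -0.77 and -1.32. TBL1XR1, a subunit of the corepressor complex, was higher by 2.68 and 2.19. The MEF2 target NR4A1, an orphan nuclear receptor, was well above background on 0 HA22T arrays and was at least 37.1-fold higher in PLC5 with siControl and at least 27.7-fold higher with siGALNT1. The gluconeogenic target PCK1 was lower in HA22T by -3.40 and -3.62, and G6PC1 by -5.82, with 1 of 3 HA22T siControl arrays well above background, and -3.11. The median difference of the list was 0.13 and 0.20. Liver markers were lower in HA22T as well, and their part in these differences was not tested.

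Of 14 other histone deacetylases and sirtuins, 2 were higher and 2 lower in HA22T with siControl and 1 and 3 with siGALNT1. The largest was HDAC11, the class IV enzyme, at -3.11 and -2.89. The class I enzyme HDAC1 was higher by 1.06 with siControl (adjusted p = 0.0144 from limma), and the deacetylase SIRT1 by 1.12 (adjusted p = 0.0170 from limma). On the TET side, 1 of 10 counted cofactors and partners was higher and 2 were lower with siControl, and 0 and 3 with siGALNT1. IDH1, which makes the TET cosubstrate, was lower in HA22T by -2.69 and -2.94 (adjusted p = 2.79e-04 and 1.62e-04 from limma), and CXXC5 by -1.23 and -1.71. Among 12 base excision genes, the stress gene GADD45A was the only one called with siControl, higher by 1.91, and with siGALNT1 it was higher by 2.04 while NEIL1, XRCC1 and POLB were lower. Of 10 counted DNA methylation writers and readers, 4 were higher and 0 lower with siControl, and 3 and 0 with siGALNT1. UHRF1, which guides DNMT1 to newly replicated DNA, was higher by 2.18 and 1.59, and UHRF2 by 1.06 and 0.96 (adjusted p at most 0.0495 in limma for each). The median of this list was 0.81 and 0.45, beside 0.03 and 0.11 over all probes.

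**Figure D5:**
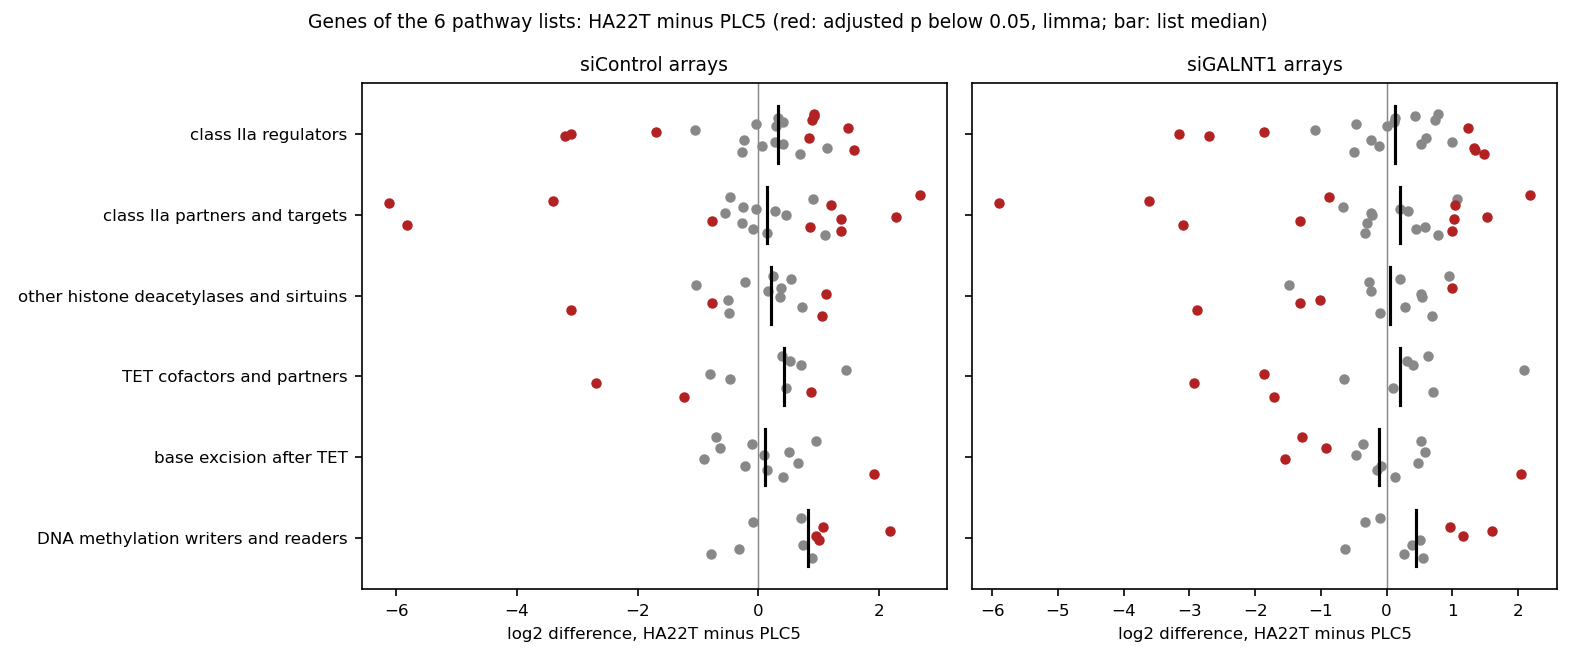
Log2 difference of HA22T minus PLC5 (x axis) for each counted gene of the 6 lists (rows) on siControl and siGALNT1 arrays, in red where the adjusted p was below 0.05 in limma, with a bar at the list median. Calls lie on both sides of 0 in the class IIa lists, and those of the DNA methylation list are all on the HA22T side.

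Across the 12 arrays, which share lines and slides, the genes whose brightest probe followed each member most closely among 14351 genes were described by Pearson's r. They were AKT1 (0.991) and NPEPPS (0.988) for HDAC7, LGI4 (0.885) and C17orf78 (0.836) for HDAC5, SMR3A (0.912) and IPO11 (0.911) for HDAC9, RDH12 (0.987) and TRIM42 (0.986) for TET1, and GTF3C5 (0.961) and SEC23B (0.947) for TET2. HDAC4 had too few values for this. Between the members themselves, the read probes of HDAC7 and TET2 had an r of 0.813, those of HDAC7 and TET1 0.586 and those of HDAC5 and HDAC7 0.186.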

How the data were processed

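Total RNA was reverse transcribed, labeled with dye and hybridized by the authors to Agilent arrays, whose images were read with Feature Extraction 10.5.1.1. The deposited intensity values are its processed signal, background already subtracted, with median spot and background brightness and flags. The authors also deposited log2 values per probe, used as an alternative. Its columns have a 75th percentile near 0, and 12 of 12 correlated best with their own array. No count depth exists for arrays, so their number limits precision.

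Non-uniform spots were left out, log2 signals were set relative to the 75th percentile of all spots that are not controls, and spots of a probe were averaged. Symbols came from RefSeq transcripts (GRCh38.p14; 28174 of 50599 probes matched). Each gene was represented by its brightest probe with a value in every group. The 4 groups were fitted together in limma 3.58.1 (R 4.3.3), tested on simulated data, with Benjamini-Hochberg adjustment over probes well above background on at least 3 of 6 arrays of a line (of either line for line comparisons and the interaction). HA22T and PLC5 were compared within each treatment. Single values were also tested by exact permutation. Same-numbered HA22T arrays deviated together (r = 0.526, 0.264 and 0.338), PLC5 arrays not throughout (0.580, 5.8e-05 and 0.182), so the numbers pair HA22T only by their values.

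Named genes were all members, GALNT1, and list genes called or past a fold of 1.5 with unadjusted p below 0.05, at most 4 of the largest per list and comparison. Some genes of the lists are not reported here by name. The members and lists were chosen with earlier results of these data known.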

Additional observations from a re-analysis of the deposited data

How the results depend on the processing

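No HDAC or TET probe was called with siGALNT1 under any alternative. The calls between the lines were few and moved. Of 824 values recomputed under alternatives other than leaving out arrays, 749 were labeled unchanged and 25 changed direction, and the causes were not tested. The 824 mix log2 differences with counts of called probes. A difference was unchanged when it kept its direction and side of the threshold. A count has neither, and was unchanged when it stayed equal or close. For siGALNT1 effects and interactions of members, the reported adjusted p was at least 0.988 in limma. Keeping the same side says little for these, so the 749 are no measure of robustness. Arrays that measured a probe at or near background limit HDAC9 and the dim TET probes most. The alternative with slide 1 or slide 2 arrays alone was chosen after seeing the data. Fits on own groups and the methods' t-test give no interaction.

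Counts over all probes for siGALNT1 in HA22T, 1 in the reported fit, were 3 with normexp, 3 with an intensity trend, and 0 with the filter on all 6 arrays, the slide as a block, the replicate block, own groups or slide 1 only, and 0 to 2 without single arrays, with 1 or more only without replicate 1 of either siGALNT1 group. In PLC5 normexp gave 2, and the GALNT1 probe that was read passed with it in both lines (adjusted p = 1.67e-04 and 0.0090 in limma). The line count with siGALNT1 was 5738 on own groups, 3936 with the methods' t-test and 3191 on slide 1 only, and with siControl 3156 on slide 1 only. Member calls with siControl, 3 as reported, were 1 with the methods' t-test, 0 on slide 1 only, and 1 to 4 without single arrays, with 1 without PLC5 siControl replicate 2. With siGALNT1, 1 as reported, they were 3 with normexp, quantile scaling or trend, 2 with median scaling, the slide block or the replicate block, 0 with the t-test or slide 1 only, and 0 to 2 without single arrays, with 0 without HA22T siGALNT1 replicate 1 or PLC5 siGALNT1 replicate 2.

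For the line comparisons the replicate block joined HA22T and PLC5 arrays of the same number, and whether these pair across lines was not tested. With it the TET1 (A_19_P00806490) line difference with siControl was 2.30 (adjusted p = 0.0586 in limma), and that of HDAC4 (A_23_P210048) turned to 0.12. In HA22T, where same-numbered arrays deviated together, the block gave HDAC5 a siGALNT1 difference of 0.58 (adjusted p = 0.849 in limma).

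Some differences changed direction, among them those of HDAC4 and HDAC9, whose probes disagree. With normexp, the siGALNT1 effect in HA22T was -0.038 for TET1 (A_19_P00806490), 0.10 for TET2 (A_23_P350187) and 0.027 for TET2 (A_33_P3238685). The interaction of TET1 (A_33_P3295550) was 0.040, and the siGALNT1 line difference was 0.028 for HDAC4 (A_23_P210048) and -0.015 for HDAC5. Quantile scaling gave 0.28 for that HDAC4 probe. With the slide as a block, HDAC4 gave an interaction of -0.14 and siControl line differences of 0.12 (A_23_P210048) and 0.20 (A_23_P79572). On slide 1 only these were -0.14, 0.12 and 0.19, the PLC5 effect of TET1 was -0.10 (A_19_P00806490) and -0.24 (A_33_P3295550), their interactions 0.19 and 0.49, and the siControl line difference of the latter -0.054. Averaging probes gave HDAC4 0.036 with siGALNT1 in HA22T and 0.22 between the lines with siGALNT1, and HDAC9 -0.067 in both lines and 0.76 in both line comparisons. It also gave HDAC4 -2.27 between the lines with siControl (adjusted p = 0.0205 in limma), with the probe whose level moved with the slide in the mean.

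Without single arrays, ranges that crossed 0 for the siGALNT1 effect in HA22T were -0.031 to 0.44 for HDAC4 (A_23_P79572), -0.31 to 0.90 for HDAC9 (A_24_P206317), -0.46 to 0.73 for TET1 (A_19_P00806490), -0.043 to 0.68 for TET1 (A_23_P322756), -0.23 to 0.83 for TET1 (A_33_P3295550), -0.54 to 0.26 for TET2 (A_23_P350187) and -0.40 to 0.25 for TET2 (A_33_P3238685). In PLC5 they were -0.065 to 0.39 for HDAC7 and -0.26 to 0.89 for TET1 (A_19_P00806490). The interaction ran from -0.80 to 0.47 for that probe and from -0.53 to 0.53 for A_33_P3295550. The line difference ran from -0.59 to 0.054 for HDAC4 (A_23_P79572) and from -0.94 to 0.17 for HDAC9 (A_24_P206317) with siControl, and from -0.17 to 0.55 for TET1 (A_23_P322756) with siGALNT1.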
